A study of Mus musculus with 12 samples.

Results

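Serpins are a superfamily of protease inhibitors that trap their target by a large change of shape, and cathepsins are proteases of lysosomes and granules. The genes described here are those of the array whose name in the scanner files starts with Serpin or is Cts followed by 1 letter or digit, 75 genes on 97 probes, of 27671 genes or other features on 41174 probes. Of these, 54 were serpins and 21 were cathepsins. Cathepsin A was on the array under an older name, Ppgb, and so was counted with the other lysosomal genes.

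The samples came from NR-S1, a transplanted and highly metastatic squamous cell carcinoma of the mouse, grown in the hind leg of male C3H/HeMsNrs mice (the series' design text names the strain C3H/HeNrs). The 3 primary tumours were unirradiated, given 8 Gy of gamma rays or given 5 Gy of carbon ions, and were taken 1 week after the tumour had reached 7.5 mm. The 3 lung metastases, taken at 2 weeks, came from mice whose leg tumour had been left unirradiated, given 8 Gy of gamma rays or given 5 Gy of carbon ions, so the lung itself was not the treated site, and per the design text they came from other mice than the primaries. Laser microdissection was used to isolate tumour cells, and their RNA was amplified linearly. Ages are not given in the labels, every source is called clone 1, and there was 1 RNA per condition. Each of 6 pairs of RNAs was hybridised to 2 two-colour arrays with the dyes exchanged, and the unirradiated primary was on 10 of the 12 arrays.

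The arrays held 43379 non-control spots each, of which 53.8% to 68.8% per channel were well above background, and none was saturated. There were 4 arrays on each of 3 slides, with the pair of a dye swap always on 1 slide. Slide and RNA therefore cannot be told apart where the metastasis after carbon ions, which had another slide, is set against the other metastases. All 10 keratinocyte markers, those of the tumour's lineage, were measured in every primary and metastasis, with medians of -0.26 to 0.02 over the unirradiated primary. Single markers differed: Sprr1b fell in both irradiated primaries (-1.42 and -1.36). Krt16 fell in the carbon primary (-1.51) and rose in the gamma metastasis (1.31). Krt5 and Krt14 had opposite signs on the 2 arrays of each pair, such as 1.37 and -0.55 for Krt14 in the gamma primary. Krt17 did so in each pair but that of the carbon metastasis (1.34 and 0.40). The means of Krt5 and Krt14, from -0.53 to 0.41, and those of Krt17 are therefore uncertain. Markers of other cell types gave signals in the dissected RNAs as well. Of 12 lung epithelial markers, 11 rose in each metastasis, with medians of 4.28 to 4.97. One of them, Cyp2f2, also rose in the gamma and carbon primaries of the leg (4.14 and 4.54), so this marker was not particular to the lung samples. Of 13 skeletal muscle markers, 11 fell in each metastasis and in the primary after gamma rays. In such bulk RNA, fewer cells of a type and less RNA per cell cannot be told apart.

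Values are log2 ratios, so 1 is a 2-fold difference. For a pair of array values the first was read with the first-named RNA in Cy5 and the second with it in Cy3, and ± is the SD over these 2 orientations. That SD holds array and dye error only, since there was 1 RNA per group, and no p-value was computed. The words rose, fell and changed are kept for genes at least 2-fold apart in the same direction on both arrays. A gene counted as measured if, on every array, its probe stood well above background for 1 or both of the RNAs compared. A gene dim in one RNA therefore enters through the other, which makes counts over measured genes a description, and each number of serpins and cathepsins higher or lower given below was the same over all 75 genes with no filter on dim probes. Of the 75 genes, 48 were measured in at least 1 direct comparison (35 serpins and 13 cathepsins) and 25 changed in at least 1. The remaining 27 were measured in none, among them the 8 cathepsins of the placental cluster on chromosome 13 (Cts3, Cts6, Cts7, Cts8, Ctsj, Ctsm, Ctsq and Ctsr) and Serpinb3a.

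Serpins of clade A are mostly secreted by liver and other cells, and those of clade B lack a classical secretion signal and act largely inside cells, where many guard against the cell's own granule proteases. Plasma serpins restrain complement, clotting and plasminogen activation. Cysteine cathepsins break down proteins in lysosomes and trim antigens for MHC class II, and secreted ones can cut extracellular matrix in tumours. Cystatins and stefins are their main inhibitors. In the mouse, serpin genes lie in clusters of recent duplicates, of which 19 members stood together on chromosome 12, 12 on chromosome 1 and 12 on chromosome 13. Probes for such near copies (Serpina1b, Serpina1d and Serpina1e; Serpina3f, Serpina3g, Serpina3m and Serpina3n; Serpinb1a, Serpinb1b and Serpinb1c; Serpinb6a, Serpinb6b and Serpinb6c; Serpinb9e and Serpinb9g) may bind each other's transcripts, so the copy behind such a value is uncertain.

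Promoters are shown for 5 of the genes that changed in the primaries or metastases and whose window holds a motif of interferon signalling, chosen with their values known. Ctsc and Serpinb9, with a gamma-activated site at -236 and a response element core at -46, are not printed. RefSeq windows (GRCm38.p6) of 300 bases, 250 before to 50 after a start site, were found for 61 of the 75 genes, in 69 windows. Capitals mark matches on either strand to the core of the interferon-stimulated response element (GAAA, any 2 bases, GAAA), the gamma-activated site (TTCNNNGAA), the E-box CACGTG and the TATA box (TATAAA).
Serpina3f, chr12:104214294-104214593, + strand: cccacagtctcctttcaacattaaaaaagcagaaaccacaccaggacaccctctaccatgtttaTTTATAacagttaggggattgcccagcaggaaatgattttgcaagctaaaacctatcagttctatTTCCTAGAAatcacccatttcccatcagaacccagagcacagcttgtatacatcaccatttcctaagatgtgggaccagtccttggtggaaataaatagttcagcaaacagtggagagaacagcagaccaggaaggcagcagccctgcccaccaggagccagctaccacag
Serpina3g, chr12:104235897-104236196, + strand: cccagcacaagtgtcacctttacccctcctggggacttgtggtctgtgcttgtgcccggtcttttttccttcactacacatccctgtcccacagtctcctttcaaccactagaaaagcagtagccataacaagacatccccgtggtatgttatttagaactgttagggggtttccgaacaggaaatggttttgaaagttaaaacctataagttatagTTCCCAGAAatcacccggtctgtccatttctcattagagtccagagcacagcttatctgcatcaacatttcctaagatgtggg
Ctso, chr3:81932351-81932650, + strand: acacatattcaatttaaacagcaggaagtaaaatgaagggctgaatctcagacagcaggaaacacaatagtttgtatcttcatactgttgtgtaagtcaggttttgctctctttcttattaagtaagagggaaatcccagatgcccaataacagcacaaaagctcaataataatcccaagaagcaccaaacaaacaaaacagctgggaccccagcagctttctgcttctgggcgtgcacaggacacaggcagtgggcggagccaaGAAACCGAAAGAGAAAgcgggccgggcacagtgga
Ctss, chr3:95526536-95526835, + strand: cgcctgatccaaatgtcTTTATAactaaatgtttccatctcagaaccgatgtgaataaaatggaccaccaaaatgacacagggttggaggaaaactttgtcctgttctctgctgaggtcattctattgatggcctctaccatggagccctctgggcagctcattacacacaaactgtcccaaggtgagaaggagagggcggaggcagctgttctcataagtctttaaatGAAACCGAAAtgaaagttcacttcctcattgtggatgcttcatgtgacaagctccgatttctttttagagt
Serpinb2, chr1:107511173-107511472, + strand: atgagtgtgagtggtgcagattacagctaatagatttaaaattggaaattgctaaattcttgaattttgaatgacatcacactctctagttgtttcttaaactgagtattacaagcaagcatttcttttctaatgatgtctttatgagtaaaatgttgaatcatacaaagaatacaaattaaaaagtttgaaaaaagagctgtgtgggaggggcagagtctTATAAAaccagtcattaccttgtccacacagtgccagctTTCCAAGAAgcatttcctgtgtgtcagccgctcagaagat
Serpina3f and Serpina3g each held a gamma-activated site, at -121 and at -33 from the start site. The 2 overlapping response element cores of Ctso began at 15 and 21 after the start site, and the core of Ctss at -21. The Serpinb2 window held a TATA box at -29 and a gamma-activated site at 10 after the start. The response element core was found in 5 of the 69 windows (7.25%, against 3.44% of all 32851 windows), those of Ctso, Ctss, Serpina3a, Serpinb6a and Serpinb9. The gamma-activated site was in 12 windows (17.4% against 8.3%). Beside Ctsc, Serpina3f, Serpina3g and Serpinb2, it was found for Ctsg, Serpina1f, Serpina11, Serpinb6a and Serpinb9c, none of which changed. Neither interferon motif was found for Serping1, which rose in both irradiated primaries. The TATA box was in 23 windows (33.3% against 13.6%), and CACGTG in 3 (4.35% against 7.15%), those of Ctsd, Ctsf and Ctsl. The hypoxia response core ACGTG, which also lies inside every CACGTG, was in 8 (11.6% against 19.6%). These are numbers of windows and not of genes. Serpina11, Serpina3f and Serpinb2 each count with 2 windows that hold the same gamma-activated letters. From the other start site these letters lay at -210 for Serpina3f and at -77 for Serpinb2. A match is a description of the letters and not a site of binding.

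**Figure D1:**
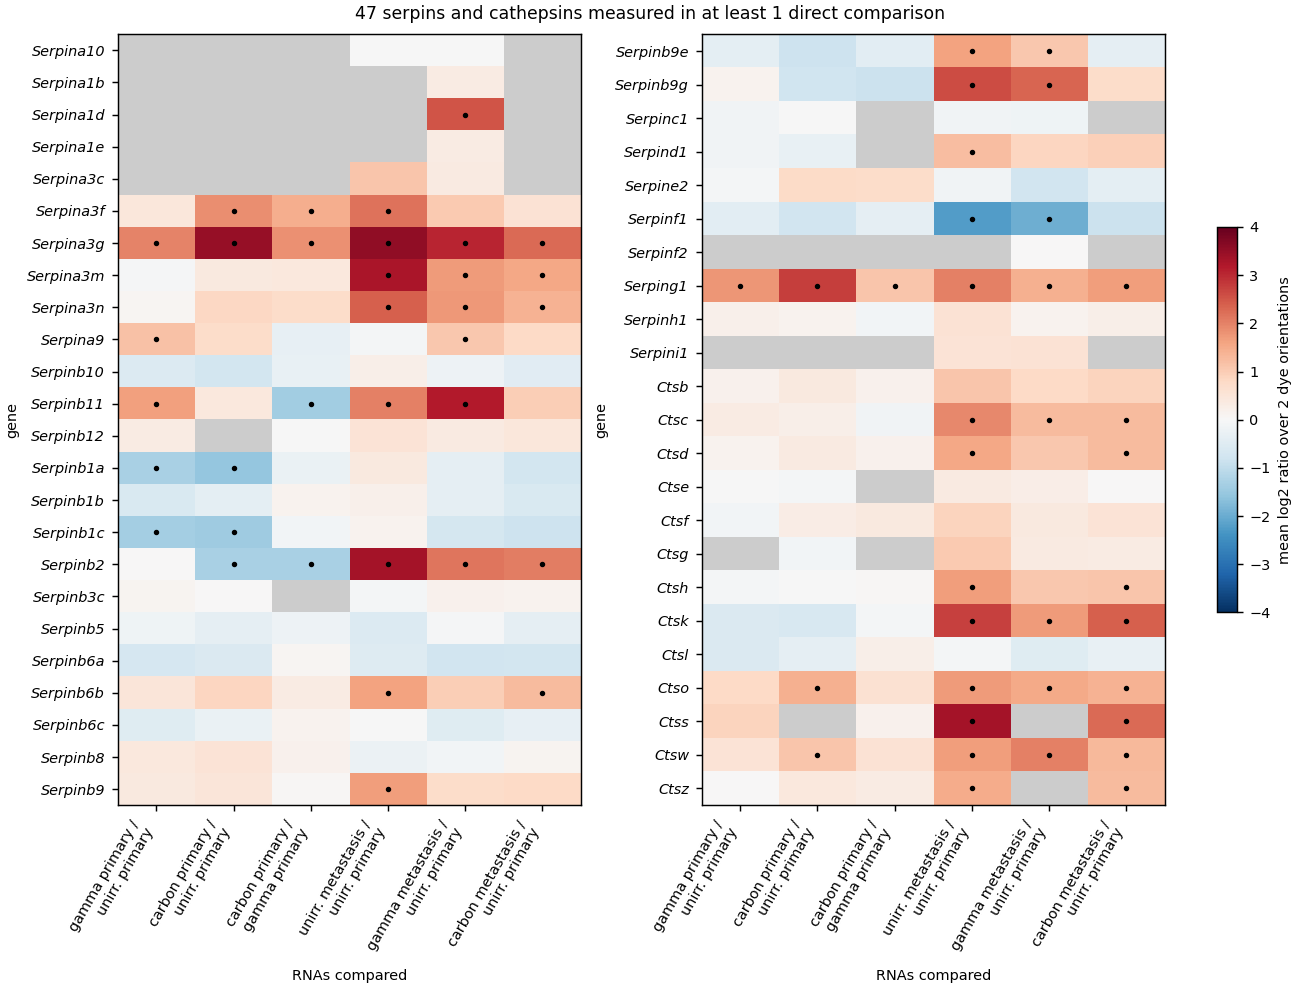
Mean log2 ratio of 47 of the 48 serpins and cathepsins measured in at least 1 direct comparison (rows) in the 6 direct comparisons (columns), with red for higher and blue for lower in the first-named RNA, grey for not measured or an outlier spot, and a dot where the gene was at least 2-fold apart on both arrays. Red cells fill most cathepsin rows in the 3 metastasis columns, and the row of Serpina3g runs from 1.82 (carbon over gamma primary) to 3.53 (unirradiated metastasis).

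The first comparison was of the primary tumour after gamma rays with the unirradiated one. Serpins moved in both directions and no cathepsin changed. Of the 40 genes measured, 4 rose (10%, where 2.23% of all genes rose) and 2 fell (5%, where 1.25% of all genes fell), while 3.49% of all genes changed in either direction, and their median of 0.02 matched the 0.016 of all genes. Serpina3g, which encodes an interferon-inducible intracellular inhibitor of cysteine cathepsins, had ratios of 2.16 and 1.81 over the unirradiated primary, a 3.96-fold rise. Serping1, the C1 inhibitor that blocks the first complement proteases, had ratios of 1.86 and 1.66 and rose 3.39-fold. Both were high on each array, with SDs over the dye orientations of 0.24 and 0.14. Serpinb11, a clade B serpin of the chromosome 1 cluster, gave 1.64 on each of the 2 arrays, a 3.12-fold rise. Serpina9, known from germinal centre B cells, had a probe not well above background for the unirradiated RNA, and was at least 2.21-fold higher after gamma rays (ratios of 1.16 and 1.19).

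Serpinb1a, an inhibitor of neutrophil elastase and related proteases, fell after gamma rays, with ratios of -1.31 and -1.30. Its neighbour Serpinb1c gave -1.38 and -1.33, while a dimmer Serpinb1c probe gave -0.50. The third copy, Serpinb1b, stood at -0.60 ± 0.14, and at 0.06 with its dimmer probe. Serpinb6a, which inhibits cathepsin G, stood at -0.67 ± 0.12 and did not pass. Among cathepsins the highest ratio was that of Ctss, which trims the invariant chain of MHC class II, at 1.09 and 0.66. Ctso, a widely expressed cysteine cathepsin, followed at 0.79 ± 0.16 and Ctsw, a cathepsin of cytotoxic lymphocytes, at 0.56 ± 0.18. Ctsk, a strong collagenase known from osteoclasts, stood at -0.57 ± 0.32 and Ctsl, a lysosomal endopeptidase, at -0.56 ± 0.14. With median centring in place of loess, the split was 4 higher and 0 lower, since Serpinb1a and Serpinb1c then passed on 1 array at most, at means of -1.36 and -1.32.

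After carbon ions, 5 of the 39 genes measured rose in the primary (12.8%, where 3.9% of all genes rose) and 3 fell (7.69%, where 1.07% of all genes fell), while 4.98% of all genes changed in either direction. The median was 0.01, against 0.023 for all genes. Serpina3g had ratios of 3.58 and 3.40, an 11.2-fold rise. Serping1 had 2.86 and 2.68, a 6.82-fold rise. Serpina3f, the neighbour of Serpina3g, had 1.94 and 1.75 and rose 3.60-fold, and a dimmer probe gave the same mean of 1.85. These were the highest values of the families in this comparison, and the arrays of each pair lay close together. Serpina3n, an acute-phase serpin that inhibits granzyme B and cathepsin G, stood at 0.83 ± 0.05, below the size rule on both arrays.

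Ctso rose 2.68-fold after carbon ions (ratios of 1.5 and 1.34). Ctsw rose 2.18-fold (1.19 and 1.06), a call that median centring lost at a mean of 1.20. For Ctss 1 array gave 1.39 and the spot on the other was an outlier, so no call was possible. The remaining measured cathepsins lay between -0.66 (Ctsk) and 0.41 (Ctsz, a carboxypeptidase).

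Serpinb1a and Serpinb1c fell again after carbon ions, with ratios of -1.56 and -1.51 for the first and of -1.47 and -1.37 for the second, whose dimmer probe gave -0.37. Serpinb2, plasminogen activator inhibitor 2 of macrophages and stressed keratinocytes, had ratios of -1.21 and -1.39 and fell by 1.30 ± 0.13. After gamma rays the same gene had stood at 0.02 ± 0.06. Median centring kept all signs but gave 4 higher and 0 lower, since Serpinb1a, Serpinb1c and Serpinb2 then passed on 1 array at most. Serpinb9e, Serpinb9g and Serpinf1 lay at -0.83 ± 0.01, -0.80 ± 0.06 and -0.77 ± 0.03 and did not pass. Serpine2, protease nexin 1, was at 0.75 ± 0.07 and Serpinb6b, a near copy of Serpinb6a, at 0.85 ± 0.31. Both irradiated primaries were measured against the same unirradiated RNA, so their values are not independent.

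Markers of interferon signalling and of lymphocytes moved beside these genes. All 13 interferon response genes rose after each beam, with medians of 3.18 after gamma rays (1.14 to 4.80) and 4.45 after carbon ions (1.94 to 7.44). Of 10 measured markers of T and natural killer cells, 4 rose after gamma rays and 8 after carbon ions, with medians of 1.02 and 1.56. The T cell marker Cd3e stood at 0.06 and 0.00. None of 11 macrophage markers passed after either beam (medians of 0.13 and 0.22). Neutrophil markers, 6 of 10 measured, had medians of -0.03 after gamma rays and -1.17 after carbon ions, where 3 fell. Of the neutrophil markers, Ltf rose after both beams, by 2.51 ± 0.00 and 1.89 ± 0.00. The 13 skeletal muscle markers had medians of -2.34 and -0.86. The part of these cells or signals in the values of serpins and cathepsins was not tested.

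**Figure D2:**
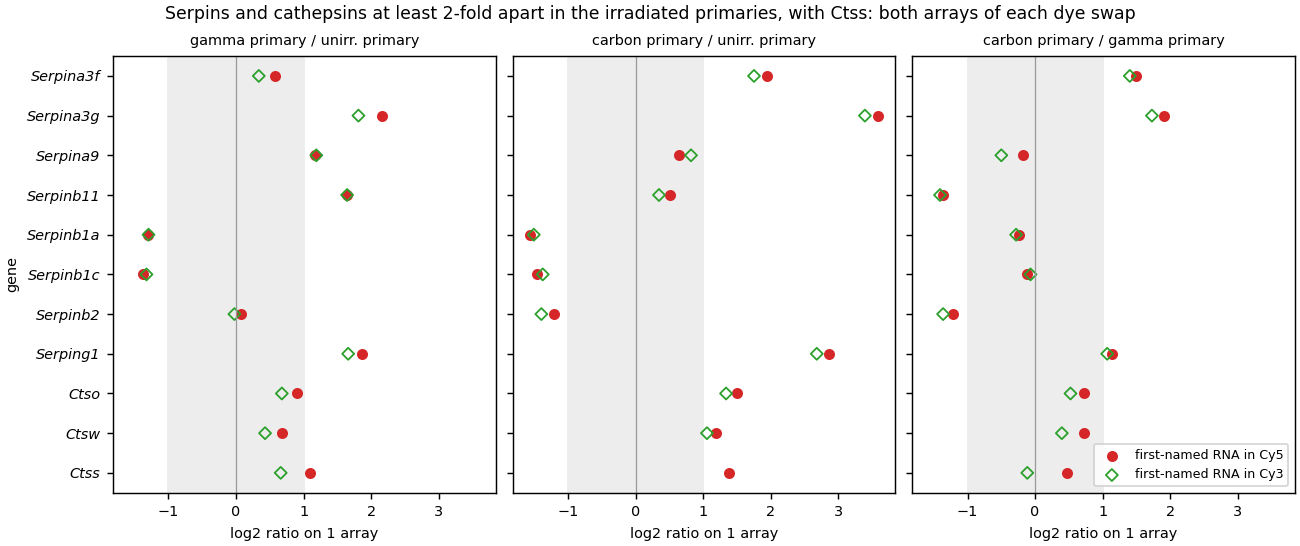
Log2 ratios on the single arrays (x axis) for the serpins and cathepsins at least 2-fold apart in a comparison of primaries, and for Ctss, with filled circles for the first-named RNA in Cy5, open diamonds for it in Cy3, and grey for differences under 2-fold. Serpina3g and Serping1 lie to the right of the grey band in all 3 panels, and Serpinb1a and Serpinb1c to its left in the first 2 panels and near 0 in the third.

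Carbon and gamma primaries were also hybridised together. Of 36 genes measured, 3 were higher after carbon ions (8.33%, where 0.884% of all genes were) and 2 lower (5.56%, where 0.16% of all genes were), while 1.04% of all genes changed. Serpina3g rose from gamma to carbon by 1.92 and 1.73 on the 2 arrays, a 3.54-fold difference. Serpina3f rose by 1.5 and 1.40, and Serping1 by 1.13 and 1.07, which median centring put at 1.08 with 1 array under the rule. Serpinb11 was lower after carbon ions, with ratios of -1.37 and -1.41, and so was Serpinb2, at -1.22 and -1.36 (lost with median centring, at -1.28). Serpinb1a and Serpinb1c, which had fallen after each beam, differed little between beams, at -0.26 ± 0.03 and -0.10 ± 0.04. Serpinb9g was not well above background in the carbon primary and at least 1.80-fold higher in the gamma primary, on neither array past the rule. Serpina3n stood at 0.74 ± 0.07 and Serpine2 at 0.73 ± 0.02. Cathepsins differed by less, from -0.14 ± 0.03 for Ctsc to 0.62 ± 0.14 for Ctso, and none of 11 passed. Taken by way of the unirradiated primary, the difference lay within 0.317 of the direct one for each of the 35 genes with both values (all but Ctss, which had an outlier spot), with an SD of 0.0817. Of 13 interferon response genes, 10 were higher after carbon ions (median 1.90), and 9 of 12 skeletal muscle markers were (median 1.32).

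Many cathepsins had higher signals in the lung metastases. Against the unirradiated primary, 8 of the 13 measured rose in the unirradiated metastasis (median 1.54), 4 of 11 in the metastasis after gamma rays (1.08) and 8 of 13 in that after carbon ions (1.26), and none fell. Over both families, 20 of 44 genes rose in the unirradiated metastasis (45.5%, where 10.4% of all genes rose) and 1 fell (2.27%, where 1.69% of all genes fell), while 12.1% of all genes changed. In the metastasis after gamma rays 14 of 46 rose (30.4%, against 8.82%) and 1 fell (2.17%, against 1.1%), and in that after carbon ions 14 of 40 rose (35%, against 8.21%) and none fell, where 1.03% of all genes fell. Of all genes, 9.92% changed after gamma rays and 9.24% after carbon ions, in either direction. Medians over the families were 1.08, 0.38 and 0.77, and those of all genes 0.047, 0.062 and 0.061. With median centring, 5 genes rose in the metastasis after carbon ions. Of the cathepsins that rose, it kept only Ctsk after carbon ions and only Ctsw after gamma rays. In the unirradiated metastasis it kept Ctsk, Ctso, Ctss and Ctsw. The other cathepsin calls were lost, at means from 0.64 (Ctsh after carbon ions) to 1.81 (Ctss after carbon ions). The 3 comparisons share the RNA of the unirradiated primary.

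Ctss had the highest ratios of the cathepsins in the unirradiated metastasis, 3.79 and 2.88, a 10.1-fold rise. It rose 4.80-fold after carbon ions (2.49 and 2.03), and the 1 usable array after gamma rays gave 2.30. The arrays of the unirradiated metastasis differed by more for Ctss than for other cathepsins (SD 0.65), yet both lay above those after carbon ions. Ctsk, which lies next to Ctss on chromosome 3, rose 6.59-fold in the unirradiated metastasis (2.84 and 2.60), 3.22-fold after gamma rays (1.86 and 1.51) and 5.25-fold after carbon ions (2.56 and 2.23). In the irradiated primaries the same gene had been below 0.

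Ctsc, the dipeptidyl peptidase that activates granzymes and neutrophil serine proteases, rose 3.75-fold, 2.40-fold and 2.41-fold, with array values of 1.95 and 1.87, 1.26 and 1.26, and 1.29 and 1.25. Ctso rose by 1.70 ± 0.16, 1.51 ± 0.13 and 1.38 ± 0.11 in the same order, not far from its 1.42 in the primary after carbon ions. Ctsw was highest after gamma rays, at 2.24 and 1.81, against 1.88 and 1.46 in the unirradiated metastasis and 1.42 and 1.16 after carbon ions. Ctsh, an aminopeptidase with a role in surfactant protein processing, rose in the unirradiated metastasis (1.81 and 1.51) and after carbon ions (1.18 and 1.07), and after gamma rays gave 1.19 and 0.97. Ctsd, the aspartic protease of lysosomes, rose in the unirradiated metastasis (1.48 and 1.60) and after carbon ions (1.06 and 1.46) and gave 0.94 and 1.22 after gamma rays, but its dimmer probe gave 0.53, 0.33 and 0.54. Ctsz rose by 1.47 ± 0.10 and 1.27 ± 0.05 in the unirradiated and carbon metastases, and had 1 usable array after gamma rays, at 1.03.

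Other cathepsins did not pass. Ctsb, an abundant lysosomal protease, had 1.33 and 0.91 in the unirradiated metastasis and means of 0.81 ± 0.18 after gamma rays and 0.88 ± 0.15 after carbon ions. Ctsf lay at 0.89 ± 0.09, 0.39 ± 0.14 and 0.54 ± 0.04. Ctsg, the serine protease of neutrophil granules, had a probe at background level in the RNA of the unirradiated primary. It was at least 2.09-fold higher in the unirradiated metastasis, with 1 array under the rule (0.93 and 1.19). Ctsl stood at -0.08 ± 0.13, -0.49 ± 0.12 and -0.31 ± 0.08, the only measured cathepsin below 0 in all 3 metastases. Ctse, an aspartic protease of epithelial and immune cells, lay between 0.03 and 0.37.

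**Figure D3:**
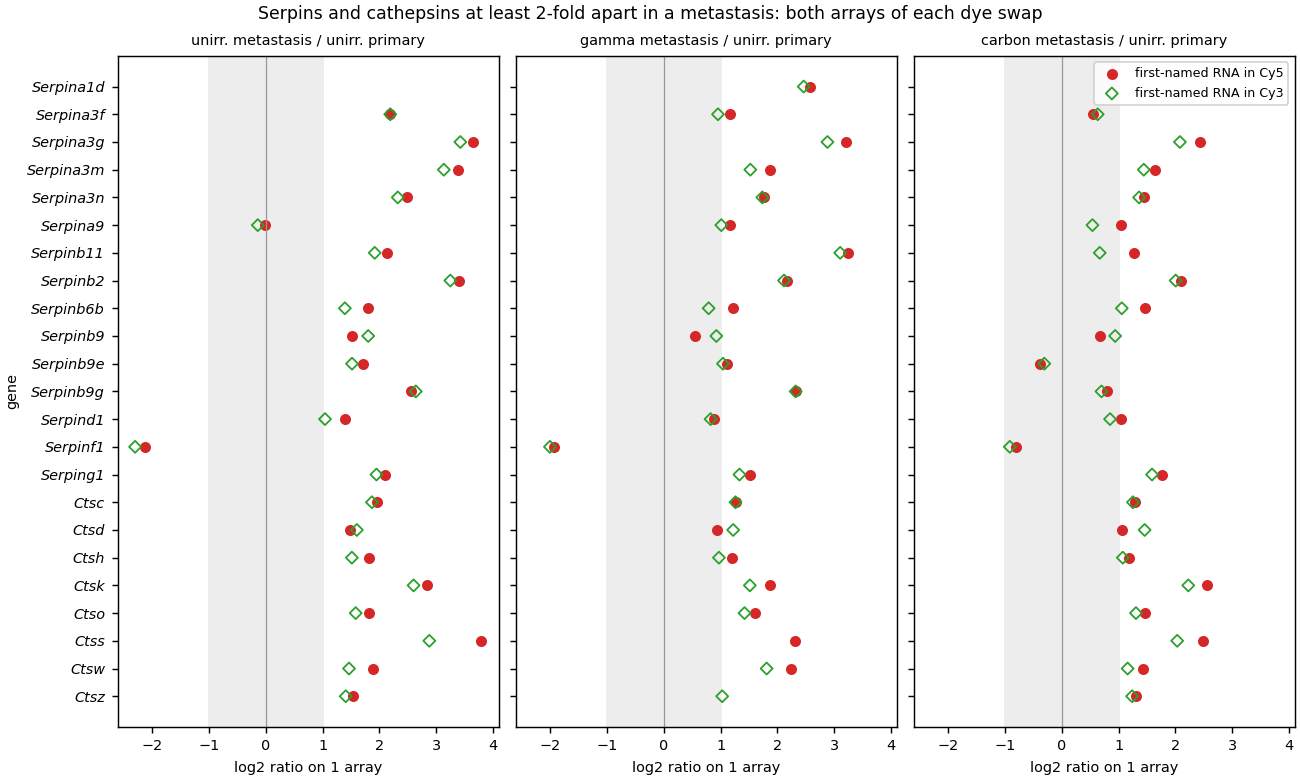
Log2 ratios over the unirradiated primary on the single arrays (x axis) for the serpins and cathepsins at least 2-fold apart in a metastasis, with filled circles for the metastasis in Cy5, open diamonds for it in Cy3, and grey for differences under 2-fold. Serpinf1 lies to the left of 0 in each panel, and all the cathepsin points lie to the right.

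Clade A serpins had some of the highest ratios in the metastases. Serpina3g rose 11.6-fold in the unirradiated metastasis (3.64 and 3.42), 8.24-fold after gamma rays (3.20 and 2.88) and 4.78-fold after carbon ions (2.43 and 2.08). Serpina3m, another copy of that cluster, rose 9.57-fold, 3.24-fold and 2.91-fold, with 3.39 and 3.13 in the unirradiated metastasis. It did not pass in the irradiated primaries, at -0.03 ± 0.22 and 0.40 ± 0.13. Serpina3n rose by 2.40 ± 0.12, 1.74 ± 0.01 and 1.41 ± 0.07. Serpina3f rose in the unirradiated metastasis (2.18 and 2.19) and gave 1.17 and 0.95 after gamma rays, while after carbon ions, where the probe was dim in the primary, it was at least 1.45-fold higher. Serpina3c was at least 2.14-fold higher in the unirradiated metastasis, against an unirradiated primary not above background, with 1 array under the rule.

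Serpina1d, one of the mouse copies of the antitrypsin of plasma, stood apart. It rose 5.73-fold in the metastasis after gamma rays (2.57 and 2.46) and was not measured in any other direct comparison, being well above background in the unirradiated and carbon metastases on 1 array each. On the 2 arrays with the gamma metastasis the unirradiated primary was well above background too, and on its 8 other arrays it was not. Serpina1b and Serpina1e were at least 1.22-fold and 1.25-fold higher in that metastasis, where the unirradiated primary was not above background. The liver markers Alb, Apoa1, Fga and Ttr were measured in no comparison, and Cyp2e1 stood at 0.59 after gamma rays. Serpina9 rose after gamma rays (1.17 and 1.01, at least 2.13-fold against a dim primary), gave 1.04 and 0.54 after carbon ions and stood at -0.08 ± 0.09 in the unirradiated metastasis.

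Of the clade B serpins, Serpinb2, which had fallen in the carbon primary, rose in all metastases. Its ratios were 3.39 and 3.25 in the unirradiated metastasis, 2.17 and 2.12 after gamma rays, and 2.10 and 2.00 after carbon ions, and its dimmer probe gave 2.51, 1.72 and 1.69. Serpinb11 rose 4.06-fold in the unirradiated metastasis (2.13 and 1.92) and 9.04-fold after gamma rays (3.25 and 3.1), and gave 1.27 and 0.67 after carbon ions. Serpinb9g and Serpinb9e, copies close to the granzyme B inhibitor Serpinb9, had their highest ratios in the unirradiated metastasis and their lowest after carbon ions. Serpinb9g rose by 2.60 ± 0.06 and 2.32 ± 0.00 and stood at 0.74 ± 0.07 after carbon ions. Serpinb9e rose by 1.61 ± 0.13 and 1.07 ± 0.05 and stood at -0.34 ± 0.05 after carbon ions.

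Serpinb9 itself rose in the unirradiated metastasis (1.52 and 1.80) and stood at 0.74 ± 0.26 and 0.81 ± 0.18 in the others, where its dimmer probe gave 1.13 and 1.38. Serpinb6b rose in the unirradiated metastasis (1.80 and 1.39) and after carbon ions (1.46 and 1.05), and gave 1.21 and 0.79 after gamma rays. Serpinb1a, down in both irradiated primaries, lay at 0.40 ± 0.04 in the unirradiated metastasis, -0.37 ± 0.01 after gamma rays and -0.74 ± 0.00 after carbon ions. Maspin (Serpinb5), a serpin of the epithelial lineage, did not pass, at -0.53 ± 0.10, -0.04 ± 0.05 and -0.35 ± 0.18. Serpinb6a stood at -0.50 ± 0.18, -0.75 ± 0.21 and -0.72 ± 0.17. The other measured clade B genes, Serpinb1b, Serpinb1c, Serpinb3c, Serpinb6c, Serpinb8, Serpinb10 and Serpinb12, lay between -0.82 and 0.53 in the metastases.

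Serping1 rose 4.06-fold, 2.69-fold and 3.19-fold in the metastases, with 2.09 and 1.95, 1.52 and 1.33, and 1.76 and 1.59. Serpinf1, which encodes pigment epithelium-derived factor, an inhibitor of vessel growth without protease targets, was the gene of these families that fell in a metastasis. Its ratios were -2.13 and -2.30 in the unirradiated metastasis, a 4.66-fold fall, and -1.93 and -2.01 after gamma rays. After carbon ions it gave -0.81 and -0.92, under the rule. Its dimmer probe gave -1.52, -1.70 and -1.07.

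Serpind1, heparin cofactor II, rose in the unirradiated metastasis (1.40 and 1.04) and stood at 0.85 ± 0.05 and 0.94 ± 0.13 in the others. Serpine2 lay at -0.13 ± 0.12, -0.76 ± 0.06 and -0.38 ± 0.11. Serpinh1, the collagen chaperone of fibroblasts, lay at 0.57 ± 0.33, 0.14 ± 0.31 and 0.23 ± 0.43. Serpini1 (neuroserpin) was at least 1.46-fold and 1.5-fold higher in the unirradiated and gamma metastases than in a dim primary. Antithrombin (Serpinc1), Serpina10 and Serpinf2, the plasmin inhibitor, were at or near background, with ratios between -0.17 and 0.00 where measured directly.

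Many markers of lung, blood vessel and immune cells were higher in the same RNAs. Of 11 macrophage markers 11 rose in the unirradiated metastasis, 5 after gamma rays and 4 after carbon ions (medians of 1.74, 0.98 and 0.83). Of 9 measured neutrophil markers 8, 8 and 2 rose (4.01, 2.46 and 0.51), and the defining granule gene Elane was measured nowhere. T and natural killer cell markers had medians of 2.31, 2.17 and 1.99, with 8 of 11, 8 of 11 and 6 of 10 higher. Of these, Cd3d and Cd3g rose in each metastasis, while Cd3e stood at -0.04, 0.00 and -0.06. Cd4 stood at -0.05 and -0.01 in the unirradiated and gamma metastases and was not measured after carbon ions. Endothelial markers had medians of 2.07, 1.32 and 1.36, fibroblast markers 1.42, 0.65 and 0.52, and mast cell markers, of which Kit rose in each, 0.07, -0.20 and -0.66. The endothelial marker Emcn stood at 0.01, 0.08 and 0.43. Of the fibroblast markers, Dcn and Pdgfra rose in each metastasis, Lum in the first 2 and Col3a1 in the first. Fap stood at -1.06 and fell after gamma rays and carbon ions (-1.33 and -1.24). Col1a1 lay at -0.15, -0.25 and -0.36, and Col1a2 at 0.11, -0.41 and -0.27. All 13 interferon response genes rose in each metastasis (medians of 3.66, 2.76 and 3.0). The placental marker measured, Prl3d1, stood at -0.18 to -0.05. The part of each in the ratios of serpins and cathepsins was not tested.

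**Figure D4:**
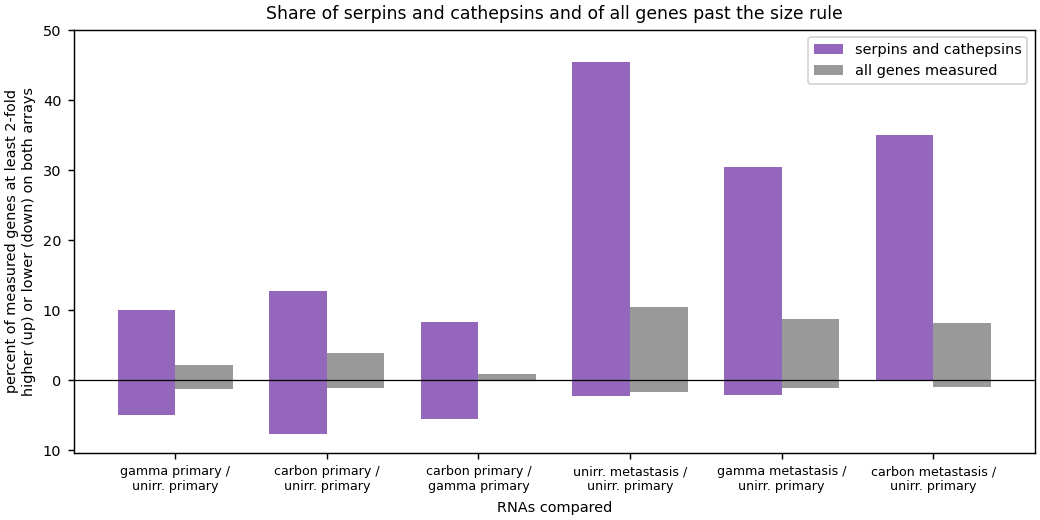
Percent of measured genes at least 2-fold higher (bars up) or lower (bars down) on both arrays, for serpins and cathepsins (purple) and for all measured genes (grey), in the 6 direct comparisons on the x axis. In the unirradiated metastasis 45.5% of the measured serpins and cathepsins were higher, against 10.4% of all genes.

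No array held 2 metastases, so they were set against each other by way of the unirradiated primary, subtracting arrays with like dye orientation. Dye bias of a probe drops out of such a subtraction, and the SDs therefore leave it out. After gamma rays, 3 of 45 genes were higher than in the unirradiated metastasis (6.67%, where 1.84% of all genes were) and 3 lower (6.67%, where 1.4% of all genes were), while 3.25% of all genes changed, and the median was -0.43. Serpinb11 stood 2.23-fold higher (1.12 and 1.19). Serpina1d (2.49 and 2.42) and Serpina9 (1.18 and 1.15) were higher too, but in the unirradiated metastasis each was well above background on 1 of 2 arrays, so their folds rest on a dim probe. Serpina3m was lower, at -1.52 and -1.61, as were Serpina3f at -1.01 and -1.24 and Serpinb2 at -1.22 and -1.13, with -0.79 from its dimmer probe. The calls of Serpina3f and Serpinb11 were lost with scaling between arrays, median centring, an offset of 0 and the processed ratio of the scanner software, which put them at -0.39 and 0.63. Scaling between arrays also lost Serpina9 and left 1 higher and 3 lower, and requiring both RNAs above background left the same numbers. Ctsk stood at -1.03 ± 0.08, with 1 array under the rule, and the other cathepsins lay between -0.71 (Ctsg) and 0.35 (Ctsw).

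After carbon ions, 1 of 44 genes was higher than in the unirradiated metastasis (2.27%, where 1.85% of all genes were) and 7 were lower (15.9%, where 2.37% of all genes were), while 4.22% of all genes changed, with a median of -0.34. Serpinf1 was higher by 1.32 and 1.39, but by 0.44 with its dimmer probe. The lower genes were Serpinb9e (-2.08 and -1.83), Serpinb9g (-1.77 and -1.94), Serpina3m (-1.74 and -1.69), Serpina3f (-1.63 and -1.56), Serpina3g (-1.21 and -1.35), Serpinb2 (-1.30 and -1.24) and Serpinb1a (-1.10 and -1.16). Agilent's processed ratio gave 3 higher and 10 lower and put Serpina3f at -0.73. Serpina3n lay at -1.03 and -0.96, and Ctss at -1.30 and -0.85. All 13 cathepsins measured lay below 0, from -1.07 to -0.20, and none passed. Neutrophil markers had a median of -3.44 in this comparison, with 7 of 9 lower, among them S100a8 at -5.42, and Ltf higher at 2.07. For macrophage markers 3 of 11 were lower (median -0.95) and for interferon response genes 4 of 13 (median -0.65). Their part in the lower serpins was not tested.

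Between the metastases after carbon ions and after gamma rays, 1 of 45 genes was higher after carbon ions (2.22%, where 0.239% of all genes were) and 4 were lower (8.89%, where 1.07% of all genes were), while 1.31% of all genes changed. Serpinf1 was higher (1.11 and 1.09), and lay at 0.62 with its dimmer probe. Serpinb11 (-1.97 and -2.44), Serpinb9g (-1.54 and -1.62) and Serpinb9e (-1.49 and -1.35) were lower. So was Serpina1d (-2.33 and -2.42), whose probe was well above background in the carbon metastasis on 1 of 2 arrays and is dropped when both RNAs must be above background, which leaves 3 lower. For Serpinb11 the ratio of carbon to gamma had been -1.39 ± 0.03 in the primaries and was -2.21 ± 0.33 in the metastases. The split was 2 higher and 4 lower with median centring and 0 and 4 with scaling between arrays. No cathepsin passed, and those measured ran from -0.74 (Ctsw) to 0.70 (Ctsk).

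Protease targets and other inhibitors were set beside these families. The list of serine proteases that serpins inhibit also held the urokinase receptor, and members of the families were left out. Of its genes, 3 of 25 rose in the primary after gamma rays and 4 of 26 after carbon ions. Their medians were 0.12 and 0.08, and 2.23% and 3.9% of all genes rose. C1s1 and C1ra, the complement proteases that the product of Serping1 blocks, rose by 2.16 ± 0.08 and 1.33 ± 0.30 after gamma rays and by 3.0 ± 0.14 and 1.96 ± 0.25 after carbon ions. Gzmb, granzyme B of cytotoxic lymphocytes, rose by 1.09 ± 0.00 and 1.78 ± 0.08, and Gzma by 1.41 ± 0.07 after carbon ions. In the metastases 6 of 26, 6 of 25 and 7 of 25 rose, where 10.4%, 8.82% and 8.21% of all genes rose. The highest were the clotting factors F7 (3.56 ± 0.28, 2.93 ± 0.11 and 3.20 ± 0.09) and F10 (3.39 ± 0.25, 2.62 ± 0.20 and 2.53 ± 0.30). Mcpt4, a mast cell protease, fell after carbon ions, at -1.20 ± 0.11.

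Cystatins and stefins, which block cysteine cathepsins, had their highest median in the unirradiated metastasis. There 8 of 14 rose and 1 fell (median 1.21), against 3 and 0 of 14 after gamma rays (0.68) and 1 and 1 of 14 after carbon ions (-0.17). Stfa3, Cstdc6, Stfa2l1, Stfa2 and Csta2, stefin genes of 1 cluster with near-identical copies that probes may not separate, rose by 4.08 ± 0.15, 4.08 ± 0.22, 4.02 ± 0.53, 3.83 ± 0.09 and 3.70 ± 0.10. After carbon ions each of these 5 was lower than in the unirradiated metastasis, with ratios from -5.16 to -3.99. In the primaries 1 of 12 fell after gamma rays, Cst6 at -1.31 ± 0.30, and 3 of 12 after carbon ions, Csta2, Cstdc6 and Stfa2l1 at -1.15 ± 0.12, -1.83 ± 0.09 and -1.85 ± 0.24. Of all genes, 1.25% and 1.07% fell in these primaries. In the metastases, in the order above, 10.4%, 8.82% and 8.21% of all genes rose, and 1.69%, 1.1% and 1.03% fell. Stefins of this cluster are known from neutrophils, whose markers had the medians given above, and the part of those cells was not tested. Cst3, cystatin C, rose in the unirradiated metastasis (1.20 ± 0.08) and after carbon ions (1.06 ± 0.06).

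Of the other lysosomal genes, 2 of 31 rose in the primary after gamma rays and 4 of 30 after carbon ions, and 13 of 29, 10 of 28 and 9 of 29 rose in the metastases, none falling, with metastasis medians of 0.89, 0.56 and 0.53. Of all genes, 2.23% and 3.9% rose in these primaries, and 10.4%, 8.82% and 8.21% in these metastases. Cd74, the invariant chain that Ctss cleaves, rose by 2.10 ± 0.02 and 2.91 ± 0.14 in the primaries and by 3.01 ± 0.07, 3.14 ± 0.14 and 3.0 ± 0.05 in the metastases. Cathepsin A (Ctsa) rose in the metastases by 1.44 ± 0.02, 1.08 ± 0.03 and 1.17 ± 0.00. Lgmn, the asparaginyl endopeptidase that processes cathepsins, rose in the unirradiated metastasis (1.53 ± 0.26). Napsa, an aspartic protease of alveolar cells, rose by 4.32 to 4.53. Of other secreted inhibitors 8 of 17, 6 of 19 and 9 of 18 rose in the metastases. In the primaries Wfdc18, of the whey acidic protein family, rose by 4.21 ± 0.16 and 4.45 ± 0.03, Wfdc12 rose by 1.16 ± 0.15 and 1.56 ± 0.17, Ambp, the precursor of bikunin, fell, at -1.96 ± 0.29 and -2.50 ± 0.07, and Slpi, an inhibitor of elastase, fell after gamma rays, at -1.15 ± 0.19.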

How the data were processed

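Two-colour arrays of 6 RNAs were analysed. Per the file headers, Agilent Feature Extraction 9.1.3.1 read the arrays (design 014868, protocol GE2-v5_91_0806). In the scanner files, the deposited intensity values are each spot's mean brightness and median local background, not normalized. The deposited log10 ratio is Cy5 over Cy3 of signals that the software had background-corrected and dye-normalized, per the file headers, and the authors' value table equalled it within 0.005, with a median of 0 in every column. What else was done before deposit is not given in the labels or headers. The deposited flags (other values, 0 or 1 per the file headers) mark outlier spots, 16 to 58 per array, which were left out, and spots well above background.

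Background was corrected by normexp with an offset of 50, which pulls dim ratios toward 0, and ratios were normalized by loess within each array (limma 3.58.1 under R 4.3.3). Later steps used Python 3.11.15, numpy 2.4.6 and pandas 2.3.3. Directions came from the dyes in the labels. Spots of a probe were averaged and the brightest probe stood for a gene, and 22 of the 75 genes had more than 1 probe. Probes were named through RefSeq (GRCm38.p6): 22944 matched on their accession, 6664 on the current symbol, 3108 on a former one, and 8458 kept the file's name. A bound ("at least") sets the bright RNA against the higher of the dim probe's own level and the lowest level among probes well above background.

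A dye swap counted as 1 replicate, so size rules stood in for tests. Named are up to 12 genes past the rule per direction in a direct comparison (8 between metastases), and a fixed list of well-studied serpins and cathepsins wherever measured. Further genes, such as Serpinb6b and Serpinb9e in the unirradiated metastasis and copies under the rule, were named after their values were seen. For 1 member, counted with the others, the single values are not reported here. The members and the gene lists were chosen with earlier results of these data known. The calculation was tested on simulated data. Alternatives covered the source of the ratio, offset, centring, scaling, the filter on dim probes, the probe rule, each array alone and a 1.5-fold rule.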

Additional observations from a re-analysis of the deposited data

Results flagged for a closer look

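For 2 genes the difference after carbon ions was at least 2-fold, in opposite directions in the primary tumour and in the metastasis, each against the unirradiated RNA of the same site, on every array. Serpina3g stood at 3.49 ± 0.13 in the primary and -1.28 ± 0.10 in the metastasis. Serpina3f stood at 1.85 ± 0.13 in the primary and -1.60 ± 0.05 in the metastasis, where Agilent's processed ratio gave -0.73. Other genes ran in opposite directions with 1 or both differences under 2-fold, among them Serping1 (2.77 in the primary and -0.35 in the metastasis) and Serpinf1 (-0.77 and 1.35). The difference between the sites was not tested, since there was 1 RNA for each. The primaries were compared on arrays that held both RNAs and the metastases through the unirradiated primary, whose RNA entered both comparisons. The carbon metastasis had another slide than the unirradiated one, so slide and RNA cannot be told apart there. Probes for Serpina3f and Serpina3g may also bind each other's transcripts. Interferon response genes had medians of 4.45 in the primary and -0.65 in the metastasis in the same comparisons, and their part was not tested.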

How the results depend on the processing

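Each call had 1 RNA per side, and the number of arrays limits the precision. Of 88 calls over the 9 comparisons, 48 held under every alternative and no called value changed sign. Calls lost numbered 30 with median centring, 10 with scaling between arrays, 7 with the mean of all probes, 5 each with Agilent's processed ratio, the authors' table and both RNAs above background, and 2 with an offset of 0. No filter, either array alone and a 1.5-fold rule are looser than the rule used. By construction they could neither lose a call nor reverse a sign. Requiring both RNAs above background could lose calls but not reverse a sign. Numbers of genes past the rule that moved over 1.5 times are given here for carbon primary over unirradiated (8 as reported), carbon over gamma primary (5), gamma metastasis (15) and carbon metastasis (14) over the unirradiated primary, and gamma over unirradiated (6), carbon over unirradiated (8) and carbon over gamma metastasis (5). With Agilent's processed ratio, and equally with the authors' table, they were 13, 8 and 23 for the first 3 of these and 13 and 9 for the last 2, and 14 cystatins and stefins passed in at least 1 direct comparison, where 9 had. An offset of 0 gave 8 for carbon over gamma metastasis. Median centring gave 4, 3 and 5 for the carbon primary, carbon over gamma primary and the carbon metastasis, and 8 in place of 13 other lysosomal genes. A 1.5-fold rule gave 16, 8, 24, 24, 14, 20 and 9 in the order above, and 16 in place of 10 genes of the list of serine proteases and the urokinase receptor. With 1 array alone the numbers ran from 8 to 9 for the carbon primary, 5 for carbon over gamma primary, 16 to 18 and 14 to 18 for the gamma and carbon metastases, and 6 to 7, 9 to 11 and 5 to 6 between metastases. The cause of these changes was not tested. The median of all genes moved by over 0.1 with the processed ratio in the 3 metastases (to -0.11, -0.04 and -0.04) and with median centring after gamma rays and carbon ions (to -0.10 and -0.11). No paired analysis was possible because every label carries replicate 1 and each group has 1 RNA.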
